A study of Mus musculus with 203 samples.

Results

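Immune checkpoint and costimulation genes were followed in RAW264.7 cells (RAW cells), a mouse macrophage cell line, in which the histone demethylase gene Kdm1a had been knocked down. The 9 genes were Pdcd1, Cd274, Pdcd1lg2, Cd80, Cd86, Cd40, Icosl, Havcr2 and Cd276, taken by symbol out of the 25094 genes listed for these cells. All 9 were listed. In the second RNA-seq experiment of the study, on bone marrow-derived macrophages (BMDMs), which are primary macrophages grown from the marrow of WT mice or mice lacking Gps2 in macrophages, 8 of the 9 genes were among 16478 listed, Pdcd1 being the gene not listed. Values per library were analysed here for the RAW cells and not for the BMDMs. Pdcd1 was singled out because its response to IL4 differed between the knockdown and the control cells, so its values are given as a description and were not tested. The other genes were chosen by name, with earlier results of these data known.

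The RAW cells carried a lentiviral short hairpin RNA against GFP (shGFP, the control) or against Kdm1a (shKDM1A), 1 hairpin for each target, and were either untreated or incubated for 6 h with 20 ng/ml of IL4, the cytokine that drives alternative (M2) activation of macrophages. The 4 groups are named shGFP, shGFP IL4, shKDM1A and shKDM1A IL4, with 4 libraries each. The control cells therefore also carried a virus and a hairpin, and an effect of the Kdm1a hairpin other than the loss of Kdm1a cannot be told apart from it. The study's methods state that biological replicates were used in its experiments, while neither the labels nor the methods say that the 4 libraries of a group came from separate cultures, so the p-values measure the spread between these libraries, which may be technical.

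A T cell is activated when its antigen receptor and a costimulatory receptor are engaged together, and checkpoint receptors hold that response back. Macrophages take part mainly as the presenting cell. They carry the ligands CD80 and CD86, which engage CD28 or the inhibitory CTLA4, ICOSL, which engages ICOS, and PD-L1 and PD-L2, which engage PD-1, and they carry CD40, through which helper T cells activate them. IL4 acts on macrophages through the transcription factor STAT6, and the PD-L2 gene is a well-known target of this pathway in primary macrophages.

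Library totals ran from 17554721 to 27782568 tags. The values are log2 expression values that had been moderated for genes with few reads, so that a difference understates the change of a weakly expressed gene, and a comparison of differences between groups depends in part on the level at which each was measured. Kdm1a, the targeted gene, lay between 11.07 and 11.23 in the 8 shGFP libraries and between 10.23 and 10.36 in the 8 shKDM1A libraries, with no overlap, a difference of -0.88 without IL4 and -0.79 with IL4. Of 7 macrophage markers, 6 were well expressed, with Lyz2 and Csf1r highest, and Mertk was near the bottom of the scale at -0.999 to -0.980. Of 7 T cell markers, Lck was at 5.71 to 5.92 while Cd3g and Cd8a were at 0 in all 16 libraries and Cd3e, Cd3d, Cd4 and Cd2 were below 0. A gene at exactly 0 in every library was not taken to be higher than one below 0. None of 4 B cell markers reached a value of 1, and of 5 dendritic cell markers Zbtb46, Xcr1 and Batf3 did, the highest being Zbtb46 at 4.04 to 4.22. The summed macrophage marker level, on the log2 scale, was 17.4 in shGFP, 17.1 in shGFP IL4, 17.6 in shKDM1A and 17.5 to 17.6 in shKDM1A IL4 libraries. This sum was carried by Lyz2, which differed with IL4 by -0.53 in shGFP cells, whereas Adgre1 rose there by 1.24 and Csf1r by 0.26, so the markers did not move together, and their part in the results that follow was not tested.

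In the order of level per kb of transcript, which allows genes to be compared, Cd276 (log2 value per kb 8.50 ± 0.05, SD, n = 4) and Havcr2 (8.01 ± 0.08, SD, n = 4) stood first in untreated shGFP cells. Pdcd1 followed at 4.99, Icosl at 4.87, Cd274 at 4.61, Cd40 at 4.51 and Cd80 at 4.02. Pdcd1lg2 was at -0.44 and Cd86 at -1.14, both close to the bottom of the scale. Neighbours in this order did not overlap between the 4 libraries, although the libraries measure only the spread of each gene and not the error of its length. Over all 16 libraries, Cd276 lay above 64.7% and Havcr2 above 59.7% of the 12905 genes tested per kb, while Pdcd1 lay above 25.1% and Pdcd1lg2 above 1.15%. Without division by length the order changed in the middle, where Cd274 moved from place 5 to place 3 and Pdcd1 from place 3 to place 5.

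**Figure D1:**
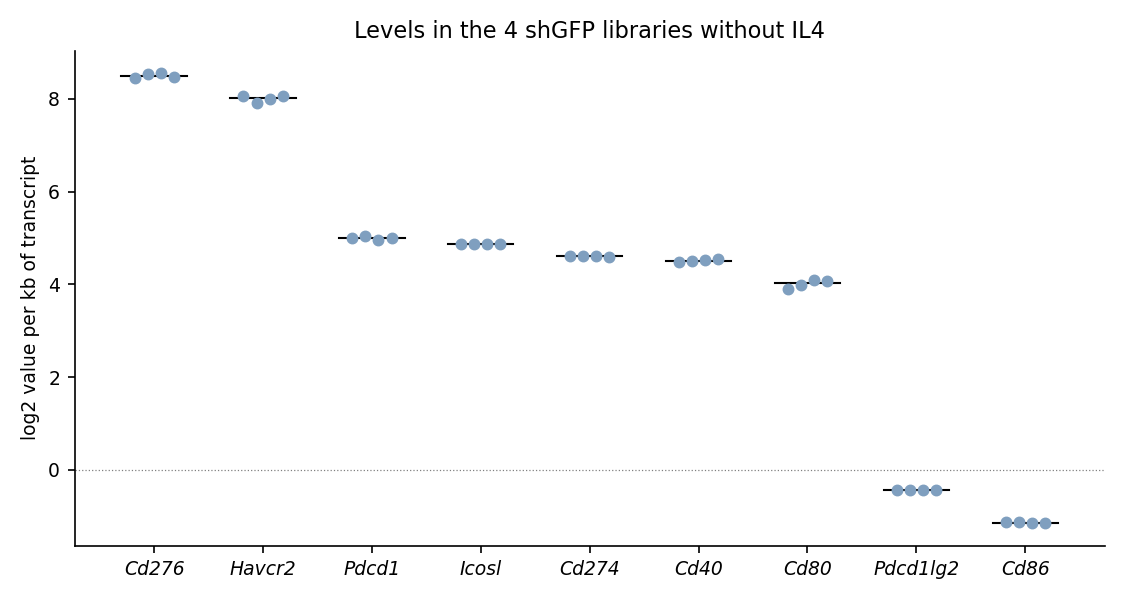
Log2 value per kb of transcript (vertical axis) of the 9 genes in the 4 shGFP libraries without IL4, one point per library and a line at the mean. Cd276 and Havcr2 stood near 8, 5 genes had means between 4.02 and 4.99, and Pdcd1lg2 and Cd86 lay below 0.

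The stretches just upstream of the start of 4 of the genes are shown because these genes carried the largest differences, or, for Pdcd1lg2, held the STAT6 letters. They are the 250 bases before the start in RefSeq, on the GRCm38.p6 build, which is not the mm9 build of the expression table. Capitals mark TTC and GAA with 4 bases of any kind between them, the letters bound by STAT6, which read the same on both strands.
Pdcd1: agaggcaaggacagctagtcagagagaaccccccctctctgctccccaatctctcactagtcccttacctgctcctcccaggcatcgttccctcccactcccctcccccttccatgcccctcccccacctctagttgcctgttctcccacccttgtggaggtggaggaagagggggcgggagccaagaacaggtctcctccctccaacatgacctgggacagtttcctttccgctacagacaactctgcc
Cd274: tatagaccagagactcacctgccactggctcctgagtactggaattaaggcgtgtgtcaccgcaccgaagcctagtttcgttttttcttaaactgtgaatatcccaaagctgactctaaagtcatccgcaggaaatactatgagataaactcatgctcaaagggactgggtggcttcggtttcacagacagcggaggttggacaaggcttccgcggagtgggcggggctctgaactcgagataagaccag
Pdcd1lg2: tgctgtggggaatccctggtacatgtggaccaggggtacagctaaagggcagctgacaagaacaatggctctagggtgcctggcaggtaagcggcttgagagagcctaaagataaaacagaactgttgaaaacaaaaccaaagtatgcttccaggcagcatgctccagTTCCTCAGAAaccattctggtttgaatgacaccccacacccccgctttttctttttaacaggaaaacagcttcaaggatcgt
Havcr2: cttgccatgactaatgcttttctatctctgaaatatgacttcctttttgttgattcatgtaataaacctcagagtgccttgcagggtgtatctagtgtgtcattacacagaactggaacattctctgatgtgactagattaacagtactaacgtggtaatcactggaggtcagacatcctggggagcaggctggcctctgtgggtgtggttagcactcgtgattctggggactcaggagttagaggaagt
They lie at chr1:94052554-94052803 on the minus strand for Pdcd1 and, on the plus strand, at chr19:29367188-29367437 for Cd274, chr19:29410669-29410918 for Pdcd1lg2 and chr11:46454681-46454930 for Havcr2. Of the 9 genes 7 had such a stretch, and 1 of them, Pdcd1lg2, held the letters, from 82 to 73 bases before its start. Among all 32851 stretches of the same length 5.85% held them. With 3 bases between TTC and GAA none of the 7 held a match, against 7.02% of all stretches. The GC content was 60.4% for Pdcd1, 50.4% for Cd274, 48.4% for Pdcd1lg2 and 44.8% for Havcr2, with a median of 52.4% over all stretches. A match of letters is no evidence of binding, and the absence of a match in this window does not bear on sites elsewhere.

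Pdcd1 encodes PD-1, the inhibitory receptor best known from activated T cells, and lies on chromosome 1 of mm9 from 95934882 to 95949130 on the minus strand. In shGFP cells its log2 values were 5.94, 5.98, 5.89 and 5.94 without IL4 and 6.29, 6.09, 6.05 and 6.12 with IL4. In shKDM1A cells they were 6.43, 6.35, 6.28 and 6.44 without IL4 and 7.31, 7.29, 7.24 and 7.26 with IL4. The 4 shKDM1A IL4 libraries thus stood above the other 12, whereas the shGFP IL4 and the untreated shKDM1A libraries overlapped slightly. The mean difference with IL4 was 0.20 in shGFP and 0.90 in shKDM1A cells. Knockdown went with a difference of 0.44 in untreated and 1.14 in IL4-treated cells. The IL4 response was thus 0.70 larger with shKDM1A, the value for which the gene was chosen, and it ranked 1 of 12905 genes tested when these were ordered from the largest increase in response. In the IL4 effect itself, ordered from the largest increase, Pdcd1 ranked 534 in shGFP and 27 in shKDM1A cells. Of the 7 T cell markers, 6 were at or below 0 in every one of these libraries. The other, Lck, was at 5.71 to 5.92 and was higher with shKDM1A by 0.09 both without and with IL4 (adjusted p = 0.023 and 0.026 from limma), with IL4 differences of -0.07 in both cell lines that did not pass (adjusted p = 0.11 and 0.094). Of the receptors that T cells carry, Cd28 was lower with shKDM1A, by -0.20 without and -0.08 with IL4 (adjusted p = 3.3e-05 and 0.038), and Icos was lower without IL4, by -0.09 (adjusted p = 0.0046). Both were lower with IL4 in shGFP cells, by -0.18 and -0.07 (adjusted p = 0.00015 and 0.037 from limma). In shKDM1A cells neither IL4 difference passed (adjusted p = 0.14 and 0.91). Tnfrsf4, also tested, was not called in these comparisons. The part of T cell RNA in the Pdcd1 values was not tested.

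**Figure D2:**
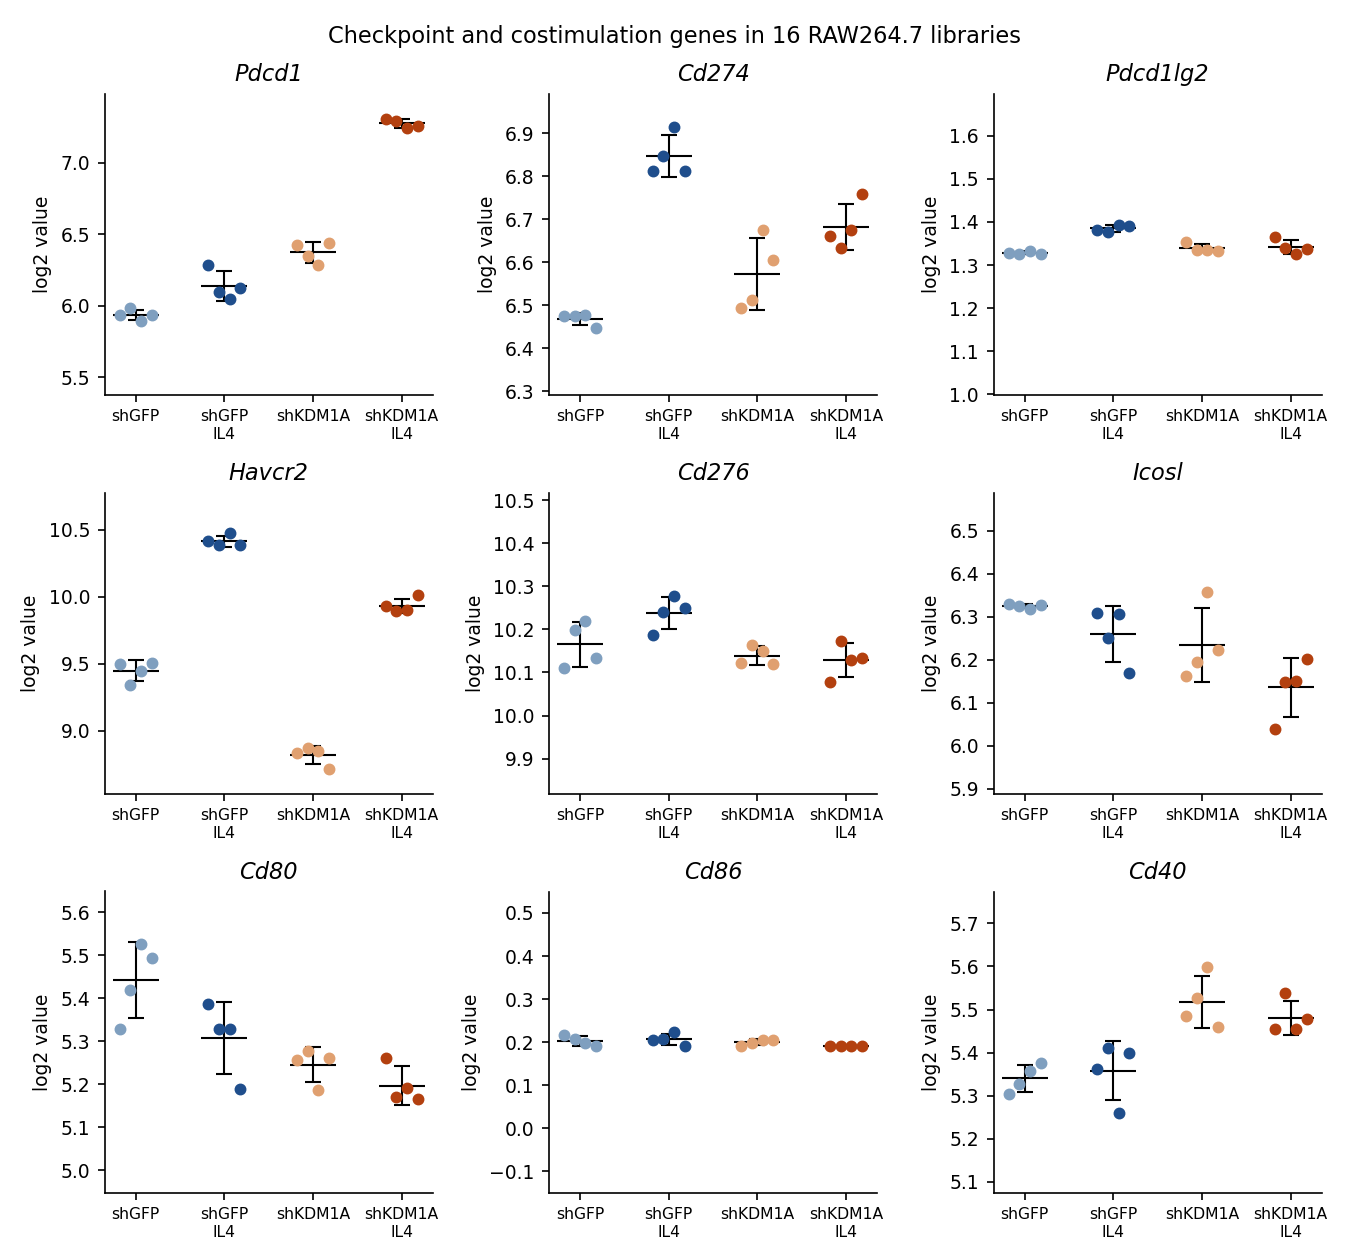
Log2 value (vertical axes, each panel with its own range) of the 9 genes in the 4 groups, one point per library, with the mean and SD of 4 libraries in black. The 4 shKDM1A IL4 libraries of Pdcd1 lay above 7.2, and those of Havcr2 lay below the shGFP IL4 libraries.

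Cd274 encodes PD-L1, the more widely expressed ligand of PD-1 (chromosome 19 of mm9, 29441928 to 29462584, plus strand). Its log2 values in shGFP cells were 6.47, 6.48, 6.48 and 6.45 without IL4 and 6.81, 6.85, 6.91 and 6.81 with IL4. In shKDM1A cells the values were 6.49, 6.51, 6.67 and 6.60 without IL4 and 6.66, 6.63, 6.68 and 6.76 with IL4. Treated and untreated libraries were fully apart in shGFP cells and overlapped in shKDM1A cells. IL4 raised Cd274 by 0.38 (SE 0.04, adjusted p = 8.3e-07 from limma) in shGFP cells, and by 0.11 (SE 0.04, adjusted p = 0.036) in shKDM1A cells. The response was smaller with shKDM1A by a difference of -0.27 (SE 0.05, adjusted p = 0.0069), while that of Pdcd1 was larger. Accordingly, shKDM1A cells had more Cd274 than shGFP cells without IL4 (0.10, SE 0.04, adjusted p = 0.037) and less with IL4 (-0.16, SE 0.04, adjusted p = 0.0021). The increase with IL4 in shKDM1A cells kept its call in 17 of 23 alternatives (adjusted p from 0.0054 to 0.12), and lost it without a filter or with only the groups compared, at the same difference, and without shKDM1A replicate 1 (log2 difference 0.085) or 2 (0.091) or shKDM1A IL4 replicate 3 (0.11) or 4 (0.085). The increase with shKDM1A in untreated cells kept its call in 13 of 23 (adjusted p from 0.014 to 0.17), and lost it after quantile normalization (log2 difference 0.069, adjusted p = 0.17), and, at the same difference, without a filter (adjusted p = 0.062), with only the groups compared and with a trended prior variance (adjusted p = 0.051 in both). It was also lost without any one of the shGFP libraries (log2 difference 0.096 to 0.11) or without shKDM1A replicate 3 (log2 difference 0.069) or 4 (0.093). The smaller response kept an adjusted p of 0.0034 to 0.018 over 22 alternatives.

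Pdcd1lg2 encodes PD-L2, the other ligand of PD-1, and starts 22.8 kb downstream of Cd274 on the same strand (29485409 to 29547417), with no protein-coding gene between them in GENCODE vM1. Its values were hardly above the lowest kept for testing. They were 1.33 in each of the 4 shGFP libraries and 1.38, 1.38, 1.39 and 1.39 in the shGFP IL4 libraries. In shKDM1A cells they ran from 1.33 to 1.35 without and from 1.33 to 1.37 with IL4. IL4 raised it by 0.056 (SE 0.015, adjusted p = 0.0096 from limma) in shGFP cells, with all 4 treated libraries above all 4 untreated ones, and the difference in shKDM1A cells was 0.003 (95% interval -0.03 to 0.03). At so low a level the moderation compresses differences strongly, so the size of the increase cannot be read from these values. The difference between the 2 responses, -0.054, had an adjusted p of 0.14, and of 0.012 without a filter on low values and 0.0065 with a trended prior variance, over a range of 0.0065 to 0.24. With IL4, Pdcd1lg2 was lower in shKDM1A than in shGFP cells by -0.043 (adjusted p = 0.029, range over the alternatives 0.00018 to 0.10), a call that was lost when the libraries were centred on their medians, at -0.033, with only the groups compared, at the same difference (adjusted p = 0.10), and without shGFP IL4 replicate 3 (log2 difference -0.041) or 4 (-0.041) or shKDM1A IL4 replicate 2 (-0.042), 3 (-0.038) or 4 (-0.042).

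Havcr2 encodes TIM-3, an inhibitory receptor found on exhausted T cells and also on macrophages and dendritic cells (chromosome 11 of mm9, 46268433 to 46294756, plus strand). Of the 7 genes tested it had the largest IL4 response in both cell lines. Values rose from 9.50, 9.35, 9.44 and 9.51 to 10.41, 10.38, 10.47 and 10.39 in shGFP cells. In shKDM1A cells values rose from 8.84, 8.87, 8.85 and 8.72 to 9.93, 9.89, 9.90 and 10.01. None of the 4 groups overlapped, and each shKDM1A group lay below the shGFP group with the same treatment. IL4 raised Havcr2 by 0.96 (SE 0.04, adjusted p = 2.1e-11 from limma) in shGFP and by 1.11 (SE 0.04, adjusted p = 5.0e-12) in shKDM1A cells. With knockdown it fell by 0.63 (SE 0.04, adjusted p = 2.5e-09) in untreated cells and fell by 0.48 (SE 0.04, adjusted p = 7.4e-08) in IL4-treated cells. The difference between the responses, 0.15 (95% interval 0.03 to 0.27), did not pass the threshold over all genes (adjusted p = 0.13), which does not show that the responses were alike. These 4 calls held under all 23 alternatives.

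Cd276 encodes B7-H3, a member of the B7 family of ligands whose receptor is not settled (chromosome 9 of mm9, 58372107 to 58388747, minus strand). Its values varied little, from 10.08 to 10.28 over the 16 libraries. With IL4 they were 10.19, 10.24, 10.28 and 10.25 in shGFP and 10.08, 10.17, 10.13 and 10.13 in shKDM1A cells, without overlap. With knockdown Cd276 fell by 0.11 in IL4-treated cells (SE 0.03, adjusted p = 0.0045 from limma), and its difference in untreated cells was -0.03 (95% interval -0.09 to 0.03). The IL4 effect did not pass in shGFP cells (0.07, adjusted p = 0.064, range over the alternatives 0.019 to 0.19) nor in shKDM1A cells (-0.01, adjusted p = 0.84). In shGFP cells it passed with a replicate block (adjusted p = 0.019), without shGFP replicate 3 (0.091, adjusted p = 0.028) and without shGFP IL4 replicate 1 (0.090, adjusted p = 0.034). The exons of Cd276 overlap those of Gm10657 on the opposite strand in GENCODE vM1, and since reads were counted without regard to strand, the reads of the 2 genes cannot be told apart.

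Icosl encodes the ligand of the costimulatory receptor ICOS (chromosome 10 of mm9, 77532113 to 77542270, plus strand). The IL4-treated libraries were at 6.31, 6.25, 6.31 and 6.17 with shGFP and at 6.04, 6.15, 6.15 and 6.20 with shKDM1A, and overlapped. The difference with knockdown in these cells was -0.12 (SE 0.04, adjusted p = 0.027 from limma). It was lost without any one of 3 libraries, shGFP IL4 replicate 1 (-0.11), shGFP IL4 replicate 3 (-0.11) and shKDM1A IL4 replicate 1 (-0.09), with adjusted p up to 0.097 and down to 0.0097 over all alternatives. Untreated cells had a difference of -0.09 with knockdown (adjusted p = 0.11, range 0.012 to 0.28), which passed without shKDM1A replicate 3, at -0.13, and after quantile normalization, at -0.12. The untreated libraries were at 6.33, 6.33, 6.32 and 6.33 with shGFP and at 6.16, 6.20, 6.36 and 6.22 with shKDM1A. IL4 gave differences of -0.07 in shGFP (95% interval -0.15 to 0.02) and -0.10 in shKDM1A cells (95% interval -0.19 to -0.01), neither past the threshold. The treated libraries all lay below the untreated ones with shGFP and overlapped them with shKDM1A.

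Cd80 and Cd86 encode the paired ligands B7-1 and B7-2, and both lie on chromosome 16 of mm9, Cd80 from 38459013 to 38496040 on the plus strand and Cd86 from 36603955 to 36666163 on the minus strand. Cd80 was at 5.33, 5.42, 5.53 and 5.49 in untreated shGFP and at 5.26, 5.28, 5.19 and 5.26 in untreated shKDM1A libraries. These did not overlap, and with knockdown Cd80 fell by 0.20 (SE 0.04, adjusted p = 0.0021 from limma). With IL4 the shGFP libraries were at 5.39, 5.33, 5.33 and 5.19 and the shKDM1A libraries at 5.17 to 5.26. There the difference of -0.11 missed the threshold (adjusted p = 0.056, range 0.0092 to 0.17). It passed under 7 of 23 alternatives, after quantile normalization (log2 difference -0.14), without shGFP IL4 replicate 4 (-0.15) or shKDM1A IL4 replicate 1 (-0.13), and, at the same difference, with a stricter filter, with a trended prior variance and without shGFP replicate 1 or 3. With IL4 Cd80 fell by 0.13 in shGFP cells (adjusted p = 0.033) on overlapping values, a call lost under 8 of 23 alternatives (range 0.0071 to 0.11), among them leaving out shGFP replicate 3 (-0.11) or 4 (-0.12), or shGFP IL4 replicate 2 (-0.14), 3 (-0.14) or 4 (-0.094). Cd86 stayed between 0.19 and 0.22 in all 16 libraries and was not tested, since its values were below the limit of 1. That limit was reached by 8 of the 9 genes.

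Cd40 encodes the receptor through which CD40 ligand on T cells activates macrophages (chromosome 2 of mm9, 164881136 to 164897154, plus strand). In untreated libraries it was at 5.30, 5.33, 5.36 and 5.37 with shGFP and at 5.48, 5.53, 5.60 and 5.46 with shKDM1A. In IL4-treated libraries it was at 5.36, 5.41, 5.26 and 5.40 with shGFP and at 5.46, 5.54, 5.45 and 5.48 with shKDM1A. Every shKDM1A library lay above every shGFP library, with or without IL4. Knockdown raised Cd40 by 0.18 (SE 0.03, adjusted p = 0.00075 from limma) in untreated and by 0.12 (SE 0.03, adjusted p = 0.0099) in IL4-treated cells. After quantile normalization the difference with IL4 was 0.08 (adjusted p = 0.085, the highest over the alternatives, the lowest being 0.0047). IL4 itself gave 0.02 in shGFP (95% interval -0.06 to 0.09) and -0.04 in shKDM1A cells (95% interval -0.11 to 0.04).

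Counted over the 7 genes tested besides Pdcd1, IL4 changed 4 in shGFP cells, with Cd274, Pdcd1lg2 and Havcr2 higher and Cd80 lower, where 26.9% of all genes tested were called (13.1% higher, 13.7% lower). In shKDM1A cells IL4 changed 2, Cd274 and Havcr2, both higher, against 27.1% of all genes (13.6% higher, 13.5% lower). Knockdown changed 4 in untreated cells (Cd274 and Cd40 higher, Cd80 and Havcr2 lower), against 38.2% of all genes (19.7% higher, 18.4% lower). With IL4 it changed 6, with Cd40 higher and Cd274, Pdcd1lg2, Icosl, Havcr2 and Cd276 lower, against 40.7% of all genes (20.9% higher, 19.8% lower). The IL4 response differed for 1 of the 7, Cd274, against 6.13% of all genes (3.56% with a higher and 2.57% with a lower difference). The median difference of the 7 genes was 0.056, -0.011, -0.027, -0.11 and -0.053 in these 5 comparisons in turn, and the median of all genes tested was within 0.01 of 0 in each. The comparisons share libraries, so their counts are not independent of one another.

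**Figure D3:**
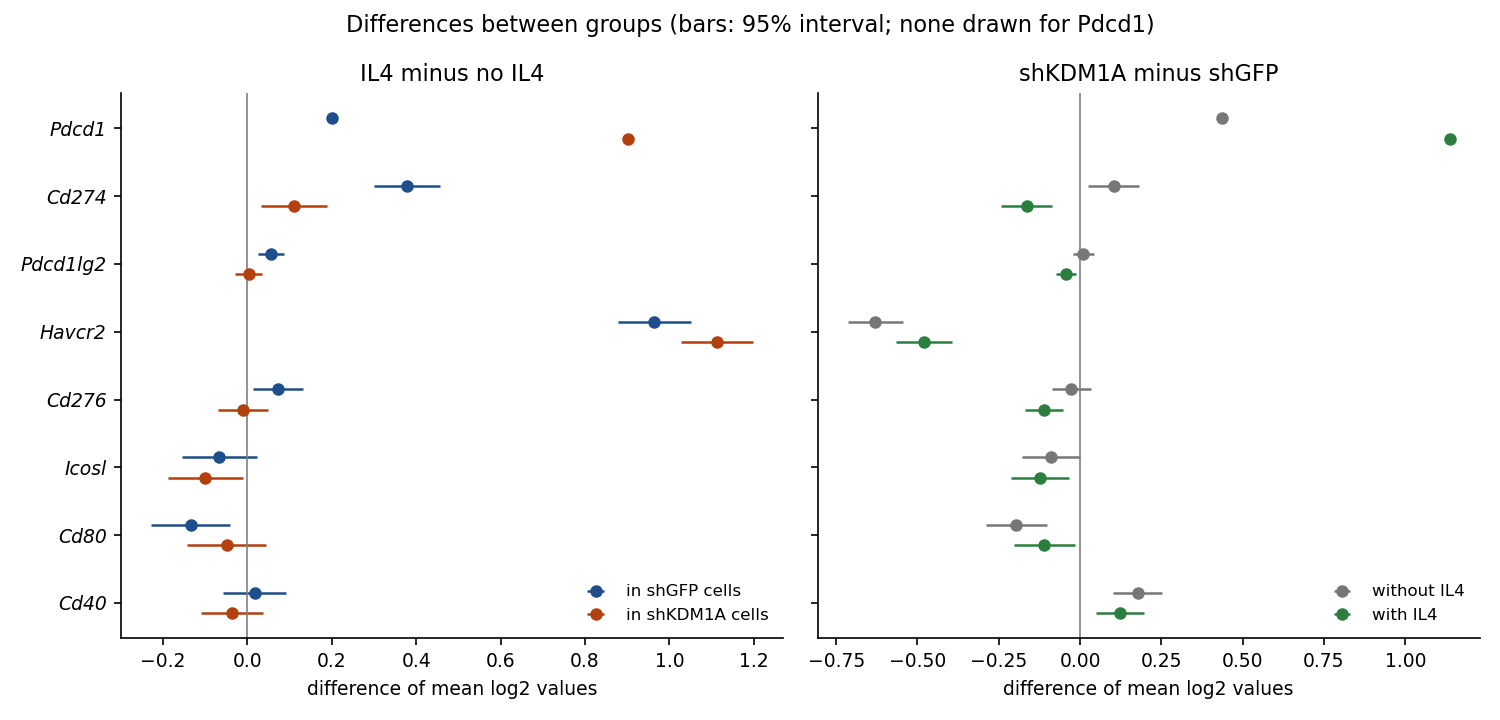
Difference of mean log2 values (horizontal axes) for the IL4 effect in shGFP and shKDM1A cells (left) and the shKDM1A effect without and with IL4 (right), with 95% intervals except for Pdcd1, which was not tested. Havcr2 rose with IL4 by about 1 in both cell lines and was lower with shKDM1A, and Cd274 changed sign with IL4 in the right panel.

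Among the 5 genes whose pattern over the 16 libraries came closest to that of Pdcd1 were Rgs16, Tmem26, Tmeff1 and Ank2. Likeness was the root mean square difference between the values of 2 genes after each was centred on its mean, and it was 0.17, 0.18, 0.19 and 0.20 for these 4 genes, against a median of 0.52 over all genes tested. A gene that does not vary at all would score 0.51, the root mean square of Pdcd1 around its own mean, so the median is close to what flat genes give. Rgs16, a regulator of G protein signalling, had group means of 6.44 in shGFP, 6.78 in shGFP IL4, 7.26 in shKDM1A and 7.80 in shKDM1A IL4 cells. Tmem26, which encodes a transmembrane protein, had means of 8.18, 8.53, 8.90 and 9.34 in the same order. These 4 genes had their lowest group mean in shGFP and their highest in shKDM1A IL4 cells. Pdcd1 shared this order of extremes, with means of 5.94, 6.14, 6.37 and 7.27. Likeness by this measure does not show that the 4 genes shared its larger IL4 response with shKDM1A, which was not examined for them. None of them was among the 5 genes with the highest Pearson correlation with Pdcd1, which were Sema3c, Phospho1, Msr1, Cd44 and Map2 with r of 0.97 to 0.99, where the 16 libraries share groups and depth.

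A list of 54 related genes, in 4 groups, chosen with earlier results of these data known, was set beside these genes. Of these 54, 37 could be tested. IL4 changed 16 in shGFP cells (6 higher, 10 lower) and 12 in shKDM1A cells (6 higher, 6 lower), which is 43.2% and 32.4% of those tested, against 26.9% and 27.1% of all genes. Knockdown changed 27 in untreated cells (11 higher, 16 lower) and 24 in IL4-treated cells (11 higher, 13 lower), or 73.0% and 64.9%, against 38.2% and 40.7% of all genes. The IL4 response differed for 3 of the 37, or 8.11%, against 6.13% of all genes. The median differences, between -0.053 and 0.001 in these 4 comparisons, were small because higher and lower genes were mixed.

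Receptors that T cells carry were mostly at the bottom of the scale, and 3 of 13 were tested. Ctla4, the inhibitory receptor for CD80 and CD86, was below 0 in all libraries, and Cd28, the activating one, lay between 3.65 and 3.98. Per kb of transcript, Pdcd1 lay between 4.95 and 6.36 over the 16 libraries, and the highest of the 13 was Icos at 2.04 to 2.19.

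Among 16 other ligands, 10 were tested. Tnfsf9, the ligand of the costimulatory receptor 4-1BB, went with IL4 from 9.74 ± 0.04 (SD, n = 4) to 8.82 ± 0.04 (SD, n = 4) in shGFP cells. The difference was -0.92 (adjusted p = 3.0e-13 from limma) in shGFP and -0.71 (adjusted p = 9.6e-12) in shKDM1A cells, and the response was smaller in size with shKDM1A by 0.22 (SE 0.04, adjusted p = 0.0032). Lgals9 encodes galectin-9, a ligand of TIM-3. With shKDM1A it rose by 0.88 in untreated cells (9.47 ± 0.06 to 10.35 ± 0.05, SD, n = 4, adjusted p = 7.7e-12) and by 1.01 in IL4-treated cells (adjusted p = 1.4e-12), while Havcr2, its receptor gene, fell. Cd48, a ligand of the receptor 2B4, fell with shKDM1A by 0.38 without and by 0.37 with IL4 (adjusted p = 5.0e-06 and 6.3e-06).

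Of 11 myeloid inhibitory receptors and Cd47, 10 were tested. Sirpa, the receptor for the signal carried by CD47, differed with shKDM1A by -0.47 in untreated and by -0.39 in IL4-treated cells (adjusted p = 6.4e-12 and 6.7e-11 from limma). Lilrb4a, an inhibitory receptor of the immunoglobulin family with close paralogs among which reads could be split, was lower with IL4, by differences of -0.52 in shGFP and -0.40 in shKDM1A cells (adjusted p = 1.9e-10 and 6.0e-09). Lair1, an inhibitory receptor for collagen, rose with IL4 by 0.39 in shGFP and by 0.45 in shKDM1A cells (adjusted p = 1.1e-06 and 2.2e-07), and the difference between these responses, 0.06, did not pass (adjusted p = 0.55). Clec4a2, a C-type lectin receptor, rose with IL4 by 0.35 in shGFP and by 0.61 in shKDM1A cells (adjusted p = 7.9e-05 and 1.6e-07). Its response was larger with shKDM1A by 0.26 (adjusted p = 0.044), a call kept in 7 of 22 alternatives (adjusted p from 0.0096 to 0.093).

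All 14 signalling and turnover genes were tested. Stat6, which carries the IL4 signal, moved little, by 0.08 with IL4 in shGFP cells (adjusted p = 0.017 from limma, and 0.059, the highest over the alternatives, without shGFP IL4 replicate 4, at 0.067, the lowest being 0.0089) and by 0.02 and -0.01 with shKDM1A without and with IL4 (adjusted p = 0.56 and 0.79). Traf1, an adaptor of TNF receptor family members including CD40 and 4-1BB, was lower with IL4 in shGFP cells, by a difference of -0.61 (adjusted p = 4.7e-09), and that response was smaller in size with shKDM1A by 0.38 (SE 0.06, adjusted p = 0.00073). Jak2, a kinase of cytokine receptors, rose with IL4 by 0.55 in shGFP and 0.41 in shKDM1A cells (adjusted p = 2.1e-07 and 7.5e-06).

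**Figure D4:**
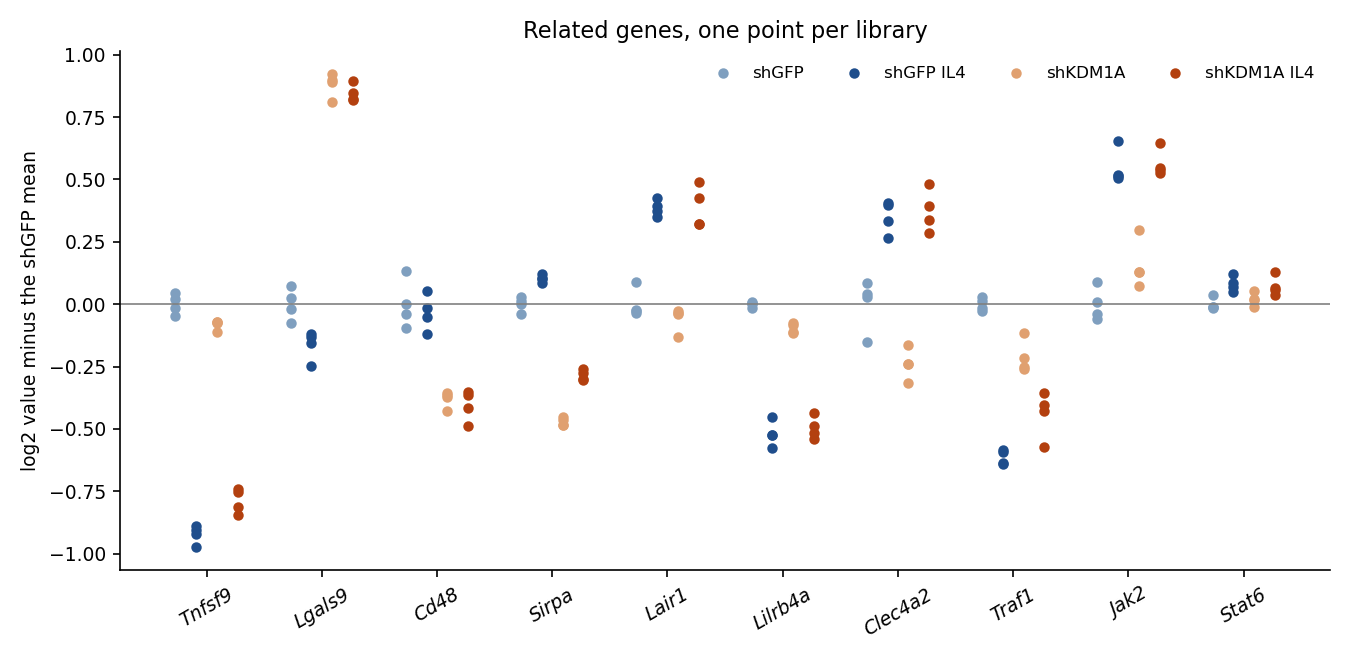
Log2 value minus the mean of the 4 shGFP libraries (vertical axis) for 10 related genes, one point per library, coloured by group. Lgals9 was higher and Sirpa and Cd48 lower in both shKDM1A groups, while Tnfsf9, Lilrb4a and Traf1 were lower in both IL4 groups.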

How the data were processed

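RNA-seq of RAW264.7 cells was analysed in 16 libraries grouped by their labels. By the study's methods and the file headers, the authors aligned reads to mm9 with HISAT2 and Bowtie2, counted them on exons with HOMER without regard to strand, condensed transcripts to 1 per gene, and compared groups with DESeq2 (versions not given in the sources used here). The deposited values are on a log2 scale and moderated for low expression, by a transformation not named in these sources, with decimals written as commas, so no count model was fitted and no pseudocount was added. Library totals were 17554721 to 27782568 tags. Columns of the authors' own comparisons (log2 fold changes with raw and adjusted p-values) were not used. The BMDM table holds nothing else beside annotation, so the test planned for it was not run. Samples of the other assays of the series were not analysed here.

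Values were fitted with limma 3.58.1 in R 4.3.3 in 1 model of 4 group means, for the 12905 of 25094 genes that reached 1 in 4 or more libraries. Benjamini-Hochberg adjustment was over all genes per comparison, with a threshold of 0.05. Intervals are 95% and unadjusted. The fit was tested on simulated data. The median absolute difference between libraries of a group was 0.036 to 0.056, and none were identical. The largest, 0.054 to 0.056, lay in the shKDM1A IL4 group, between replicates 1 or 3 and replicates 2 or 4. Within that group, replicates 1 and 3 differed by 0.044 and replicates 2 and 4 by 0.039. Levels per kb used the deposited transcript length. Coordinates are those of the deposited table (the Cd40 row carries a non-coding transcript's identifier), and overlaps are from GENCODE vM1. Promoter sequences are from RefSeq, for 7 of 9 genes. Proteins were not used here.

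The genes and lists were chosen with earlier results of these data known. Named were the 9 genes, Kdm1a, Stat6, the 4 largest called changes per comparison among the related genes, the 5 genes most like Pdcd1 and the cell type markers, except that some of these genes are not reported here. Ctla4, Cd28, Icos and Tnfrsf4, and the 5 genes with the highest correlation, were named after their values were seen. Alternatives were no filter or a limit of 5, only the groups compared, a replicate block, each library left out, median centring, quantile normalization and a trended prior variance.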

Additional observations from a re-analysis of the deposited data

Results flagged for a closer look

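The untreated shGFP libraries of Cd274 lay between 6.47 and 6.48 except replicate 4 at 6.45, which was far from the others for so narrow a group. Of 36 sets of 4 libraries examined (9 genes in 4 groups) this was the 1 so marked, and chance marks about 1 in 20. Without that library the smaller IL4 response of Cd274 with shKDM1A was -0.26 (adjusted p = 0.017 from limma, range over all alternatives 0.0034 to 0.018), and its increase with shKDM1A in untreated cells was 0.096 (adjusted p = 0.084, range 0.014 to 0.17).

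The IL4 response of Cd274 differed between the hairpins, by -0.27 on the log2 scale, by a test of the difference itself. Its response was positive in both, and the treated libraries stood above all untreated ones with shGFP and not with shKDM1A.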

How the results depend on the processing

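Over the alternatives, 744 of 793 recomputed values of the 7 genes kept direction and side of the threshold (or stayed uncalled), 35 lost a call, 14 gained one and 0 called values reversed. Among all genes named, 9 uncalled values changed sign. The number of the 7 genes called for IL4 in shKDM1A cells fell from 2 to 1 without a filter and with only the groups compared, both by the loss of Cd274, as without shKDM1A replicate 1 or 2 or shKDM1A IL4 replicate 3 or 4, and the number with a changed response rose from 1 to 2 without a filter and with a trended prior variance, both by the gain of Pdcd1lg2. Leaving out 1 library gave 3 to 5, 1 to 2, 3 to 4, 4 to 7 and 1 to 1 of the 7 genes for IL4 in shGFP, IL4 in shKDM1A, shKDM1A without IL4, shKDM1A with IL4 and the change in response, and 2975 to 3619, 3018 to 3539, 4419 to 5048, 4697 to 5293 and 530 to 1104 of all genes.

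Replicate numbers did not pair the libraries: correlations of same-numbered deviations ran from -0.34 to 0.27 over 24 pairs, with 3 over 0.1. With the replicate block, 3430, 3459, 4882, 5212 and 732 genes were called in the 5 comparisons, and 4, 2, 4, 6 and 1 of the 7 genes, with Cd276 gained (adjusted p = 0.019, range 0.019 to 0.19) and Cd80 lost (adjusted p = 0.056, range 0.0071 to 0.11) for IL4 in shGFP cells. The increase of the Pdcd1 response was 0.67 to 0.75 throughout. Cd86 and Pdcd1lg2 had the lowest values of the 9 genes, where moderation compresses differences. With 1 hairpin per target and 1 time point, the differences hold for these lines at 6 h.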
